A study of Mus musculus with 2 samples.

Results

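The glutathione and peroxiredoxin genes described here were those of both gene tables whose symbol names a cytosolic or mitochondrial glutathione transferase (Gsta, Gstk, Gstm, Gsto, Gstp, Gstt or Gstz with a number), a microsomal glutathione transferase (Mgst), a peroxiredoxin (Prdx), 1 of the genes Gclc, Gclm, Gss and Gsr of glutathione synthesis and reduction, or 1 of the gamma-glutamyl transferase genes Ggt1, Ggt5, Ggt6 and Ggt7. The rule used names only and took 39 of the 43346 Ensembl genes. They were measured in polyadenylated RNA of the gonadal fat pad, the white fat depot attached to the gonads, of adult 8-week-old C57BL/6J mice, with no treatment named in the labels. There was 1 group of 2 libraries, biological replicates 1 and 2 by their labels, each described as pooled male and female littermates. Both libraries carry the same donor identifier, so the number of mice behind each is not known. No condition was compared, and nothing was tested: differences between the libraries are described. Expected counts, the estimated numbers of fragments per gene, summed over Ensembl genes to 47106979 in replicate 1 and 54129473 in replicate 2.

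Glutathione is a small peptide that carries the reducing power of the cytosol. Glutathione transferases join it to reactive compounds, so that these can be exported, and fall into classes named alpha, mu, pi, theta, zeta, kappa and omega, with membrane-bound microsomal forms beside them. Peroxiredoxins reduce hydrogen peroxide and lipid peroxides through a reactive cysteine and are recharged mostly by thioredoxin. In fat cells these enzymes deal with aldehydes and peroxides of stored lipid, and in the epididymis, which stores maturing sperm, they belong to the defence of sperm against oxidation.

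Most of the genes were expressed, and many were abundant. At a threshold of 1 TPM (transcript abundance, scaled by length to a fixed total per library) in both libraries, 34 of 39 were expressed, against 33.0% of all genes and 61.6% of protein-coding genes; all 39 are annotated as protein-coding. There were 14 at 100 TPM or more in both libraries, beside 7.96% of all expressed genes. The median of the 34 expressed members was 119 TPM in replicate 1 and 75.3 TPM in replicate 2, against 14.2 and 12.7 TPM for all expressed genes. Together the 39 genes held 0.484% and 0.507% of the counts of all genes. The 5 below the threshold in at least 1 library were Gstt4, Gstp3, Ggt6, Gstm3 and Gsta1.

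The label names fat, and defining genes of fat cells and of the epididymal duct were both abundant. All 10 adipocyte markers were expressed, with summed levels of 17733 and 17788 TPM, and all 10 markers of the epididymal duct epithelium, with 34004 and 23243 TPM. No marker of either list stood at 0. All 7 macrophage and all 5 endothelial markers were expressed as well, at sums of 561 and 663 TPM and of 479 and 566 TPM. Which of these cells carried the transcripts below cannot be told from bulk RNA, and neither can fewer cells of a type be told apart from less RNA per cell.

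**Figure D1:**
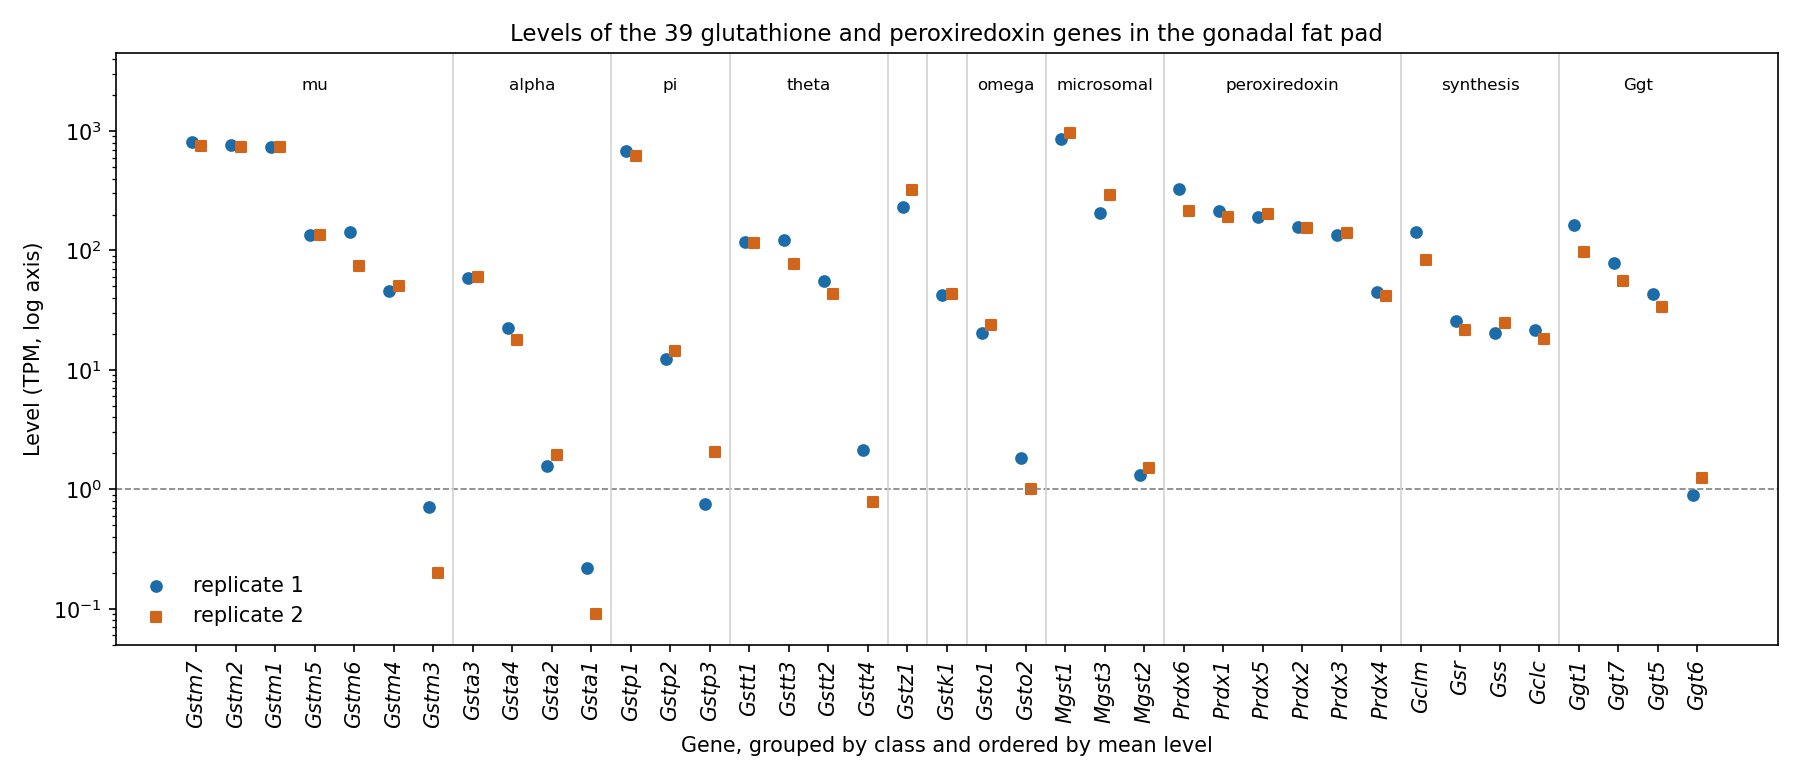
Level in TPM on a log axis of each of the 39 genes, in replicate 1 (circles) and replicate 2 (squares), by class; the dashed line is 1 TPM, zeta holds Gstz1 and kappa Gstk1. The mu genes Gstm7, Gstm2 and Gstm1, the pi gene Gstp1 and the microsomal gene Mgst1 lie between 622 and 961 TPM, and Gstm3 and Gsta1 lie below 1 TPM in both libraries.

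The mu class was the largest part of the family. The summed level of its 7 genes was 2617 and 2478 TPM (replicate 1 and 2, as in all pairs below), which was 39.5% and 39.0% of the level of all 39. Mu transferases act on epoxides and other electrophiles. Gstm7 was at 807 and 743 TPM. Gstm2 stood at 759 and 738 TPM, and Gstm1 at 728 and 738 TPM. These 3 held 87.7% and 89.5% of the mu level, and their values in the 2 libraries lay within 1.09-fold of each other for each gene. Gstm5 followed at 134 and 135 TPM, Gstm6 at 143 and 74.0 TPM, and Gstm4 at 45.6 and 50.2 TPM. Gstm3 was lowest at 0.71 and 0.20 TPM, from 29.0 and 10.1 counts. The order of Gstm2 and Gstm1 was not firm. In replicate 1 the authors' deposited intervals, 741 to 761 TPM and 711 to 730 TPM, did not overlap. In replicate 2 those of 722 to 739.9 TPM and 723 to 739 TPM overlapped. Over protein-coding transcripts alone, Gstm1 stood above Gstm2 in both libraries.

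The mu genes lie side by side, so their levels can be read along the chromosome. On mm10 they span 149 kb of chromosome 3, in the order Gstm5 (107895821 to 107898686), Gstm7 (107926334 to 107931817), Gstm6 (107938847 to 107943749), Gstm3 (107963696 to 107969283), Gstm2 (107981702 to 107986453), Gstm1 (108012255 to 108017973) and Gstm4 (108040408 to 108044894). Gstm5 is on the plus strand and the other 6 are on the minus strand. Of the high genes, Gstm2 and Gstm1 are neighbours, and Gstm7 is separated from them by Gstm6 and Gstm3. Gstm2 and its neighbour Gstm3 differed 1069-fold in replicate 1 and 3690-fold in replicate 2, where the low counts of Gstm3 limit the precision. In coding sequence the closest pair of the 21 was Gstm1 and Gstm3, with 585 of 654 aligned bases identical (89.4%), and the most distant was Gstm3 and Gstm5 at 69.9%. The gene closest in coding sequence to the abundant Gstm1 was thus the lowest of the cluster.

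**Figure D2:**
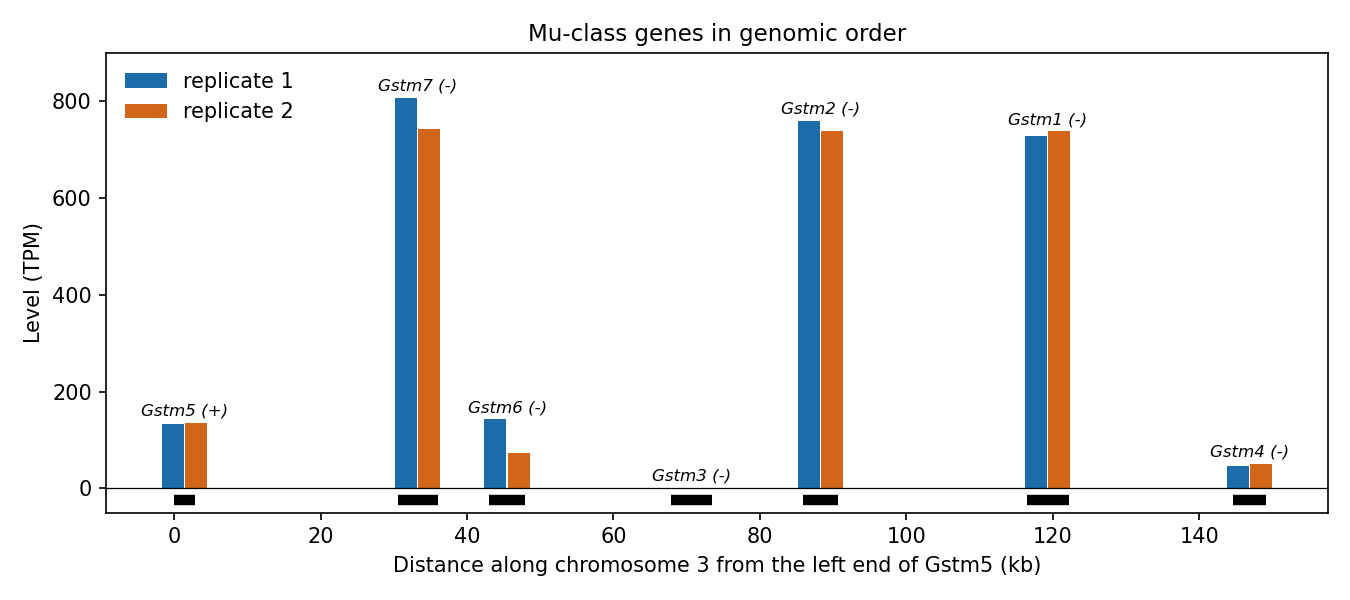
Level in TPM (bars) of the 7 mu genes at their place along chromosome 3, in kb from the left end of Gstm5; black blocks are the genes and the sign gives the strand. Gstm7, Gstm2 and Gstm1 stand at 728 to 807 TPM. Between the first and second of them lie Gstm6, at 143 and 74.0 TPM, and Gstm3, at 0.71 and 0.20 TPM.

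Similar sequence can move reads from gene to gene, and this was measured for each member. Of the 39 protein-coding transcripts with most counts per gene, 28 shared no stretch of the read length, 76 nt, with a transcript of any other gene in the annotation. Among the mu genes the share of such stretches found elsewhere was 0% for Gstm7, Gstm5 and Gstm4, 3.03% for Gstm2, 5.29% for Gstm6, 14.6% for Gstm1 and 21.3% for Gstm3. Outside the mu, pi and alpha classes it was 24.9% for Gstt3, 5.96% for Prdx2, 5.41% for Prdx1 and 0% for the others. The gene sharing most with Gstm1 was the pseudogene Gstm2-ps1, a symbol not found among the Ensembl genes of the deposited gene tables. The authors' posterior standard deviation of the count widens where fragments could belong to several of the genes quantified. It was 0.79 of 28376 counts for Gstm1 in replicate 1, a value that cannot reflect sharing with Gstm2-ps1. It exceeded 1% of the count in 3 of the 39 genes in at least 1 library.

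The pi class was carried by Gstp1, which in addition to its transferase activity binds stress kinases. Gstp1 was at 684 and 622 TPM, close to the leading mu genes. Gstp2, its neighbour on chromosome 19, was at 12.3 and 14.4 TPM, and Gstp3 was at 0.76 and 2.04 TPM from 14 and 46 counts. Gstp1 and Gstp2 differed at 12 of 630 coding bases, and the last 300 of these were identical. The stretches below hold 6 of the 12 differences. They are shown since, within the coding sequence, only fragments over such bases tell the 2 genes apart. They are coding bases 241 to 330, counted from the A of the start codon, in exon 5 of each gene on the minus strand (GENCODE transcripts on mm10), at chr19:4036694-4036783 and chr19:4040988-4041077, with the 6 differing bases in capitals.
Gstp1: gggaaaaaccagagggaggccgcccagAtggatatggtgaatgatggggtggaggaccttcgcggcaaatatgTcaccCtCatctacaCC
Gstp2: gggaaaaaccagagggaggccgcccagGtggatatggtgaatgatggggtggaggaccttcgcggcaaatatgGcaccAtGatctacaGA
Of the 76-nt stretches of the Gstp1 transcript 57.5% occurred in another gene, and of those of Gstp2 68.0%. The posterior standard deviation was 12.25 of 13779 counts for Gstp1 and 9.46 of 254 counts for Gstp2 in replicate 1. In replicate 2 it was 13.8 of 15415 and 12.4 of 364 counts. The pseudogene Gstp-ps was given 206 counts in each library.

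The alpha, theta, zeta, kappa and omega classes were lower, with the zeta gene as the exception. Gstz1, which isomerises maleylacetoacetate in tyrosine breakdown, was at 233 and 318 TPM from a single measured transcript. The theta genes Gstt1, Gstt3 and Gstt2 were at 117 and 115, 121 and 76.6, and 55.9 and 43.0 TPM, and Gstt4 at 2.14 and 0.79 TPM. All 4 lie within 63.3 kb of chromosome 10. Of the alpha genes Gsta3 led at 58.3 and 60.0 TPM, and Gsta4, which acts on the lipid aldehyde 4-hydroxynonenal, was at 22.4 and 17.9 TPM. Gsta2 was at 1.56 and 1.94 TPM. Gsta1 had 3.84 and 2.00 counts, all on its retained-intron transcript, and its coding transcript was listed at 0. Gsta1 and Gsta2 were 98.0% identical in coding sequence, and 86.1% and 46.3% of their 76-nt stretches occurred in other genes, so these low values are uncertain. The mitochondrial and peroxisomal kappa gene Gstk1 was at 42.3 and 43.6 TPM. Of the omega genes, Gsto1, which reduces dehydroascorbate, was at 20.2 and 23.9 TPM and Gsto2 at 1.84 and 1.01 TPM.

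Mgst1 had the highest TPM of all 39 genes, and its rank depended on length. This enzyme of the endoplasmic reticulum and outer mitochondrial membrane stood at 858 and 961 TPM. Its shortest main form, Mgst1-204 of 559 nt, carried 75.3% and 65.1% of the gene's TPM but 56.7% and 44.0% of its counts. The longer coding forms Mgst1-201 and Mgst1-205 stood at 108 and 151 TPM and at 90.2 and 178 TPM. By counts Gstm7 was first at 31296 and 37613, and Mgst1, at 14563 and 22136, stood behind Gstm7, Gstm1 and Gstm2. Mgst3, a microsomal peroxidase and transferase, was at 207 and 292 TPM, and Mgst2 at 1.33 and 1.5 TPM from 40 and 31 counts. The authors' deposited intervals for Mgst2, 1.48 to 3.67 and 1.58 to 3.61 TPM, lay above its TPM in both libraries.

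All 6 peroxiredoxins were expressed, at sums of 1067 and 944 TPM. Prdx1 and Prdx2 are the main forms of the cytosol. Prdx1 was at 214 and 191 TPM, and Prdx2 at 156 and 155 TPM. Prdx3, the form of the mitochondrial matrix, stood at 134 and 141 TPM, and Prdx5, found in mitochondria, peroxisomes and cytosol, at 189 and 201 TPM. Prdx4, of the endoplasmic reticulum, was lowest at 45.0 and 41.5 TPM. Prdx6, the form with a single active cysteine that is recharged by glutathione and also acts on phospholipids, had the highest gene level, 328 and 215 TPM. Red blood cells are rich in Prdx2 protein, and 4 of 5 red cell markers were expressed, with sums of 5506 and 2159 TPM over all 5. The summed level of these markers was thus much higher in replicate 1 while Prdx2 was level, and the part of these cells in its RNA was not tested.

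The gene level of Prdx6 was mostly that of transcripts annotated as non-coding. Its full coding form, Prdx6-202 of 2387 nt, was at 54.1 and 42.8 TPM, and all coding forms together made up 17.4% and 21.7% of the gene's TPM. The processed transcript Prdx6-207 of 913 nt was at 159 and 106 TPM, and Prdx6-208, annotated for nonsense-mediated decay, at 84.1 and 31.3 TPM. By counts, the coding share was 35.3% and 43.8%. Over coding transcripts alone, Prdx6 stood at 57.0 and 46.6 TPM and below Prdx1, Prdx5, Prdx3 and Prdx2, so its place at the head of the peroxiredoxins did not hold. Prdx1 was split otherwise: its long coding form Prdx1-204 was at 129 and 161 TPM while the short coding form Prdx1-205 stood at 75.9 and 22.4 TPM. In counts Prdx1 was higher in replicate 2, at 16086 against 11269, and in TPM it was lower, so the direction for this gene depended on how fragments were shared between those forms. Prdx2 had 34.1% and 27.7% of its TPM on retained-intron forms.

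Glutathione synthesis showed a gap between its 2 subunits that also rested on transcript form. Gclc encodes the catalytic and Gclm the modifier subunit of glutamate-cysteine ligase, the rate-limiting enzyme. Gclc was at 21.8 and 18.3 TPM and Gclm at 142 and 83.6 TPM, a ratio of 6.54 and 4.57. The processed transcript Gclm-202 of 762 nt carried 67.9% and 54.9% of the Gclm TPM but 39.5% and 33.5% of its counts, of which coding forms held 59.0% and 65.3%. Over coding transcripts Gclm was at 37.7 and 33.9 TPM, and the ratio to Gclc was 1.73 and 1.85. Most of that coding level, 23.9 and 27.6 TPM, lay on the short coding form Gclm-206 of 1002 nt. This form held 14.1% and 29.1% of the gene's counts, so the coding ratio rests on a short form as well. Gss, the glutathione synthetase, was at 20.5 and 24.9 TPM, and Gsr, the reductase that regenerates glutathione, at 25.6 and 21.5 TPM. Their coding forms alone were at 16.9 and 17.0 TPM for Gss and at 22.1 and 13.6 TPM for Gsr.

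Gamma-glutamyl transferases split glutathione outside the cell, which lets its amino acids be taken up again. Ggt1 was at 162 and 97.4 TPM, with Ggt1-208 as its main form. Ggt7, which is listed with this family by sequence, was at 78.3 and 55.9 TPM, of which 80.0% and 70.9% lay on 2 retained-intron forms, and its coding form was at 15.6 and 16.2 TPM. By counts the coding form held the larger share of Ggt7, 53.0% and 65.5%. Ggt5, which acts on leukotriene C4, was at 42.9 and 33.5 TPM, with 18.9% and 22.8% of the TPM but 68.8% and 74.0% of the counts on the full-length Ggt5-201. Ggt6 was at 0.90 and 1.24 TPM. Among the 34 expressed members, Prdx6, Ggt7 and Gclm were the 3 with coding forms below 50% of the gene's TPM in both libraries, beside 8.49% of all expressed protein-coding genes. By counts Prdx6 alone of these 3 was below 50%.

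**Figure D3:**
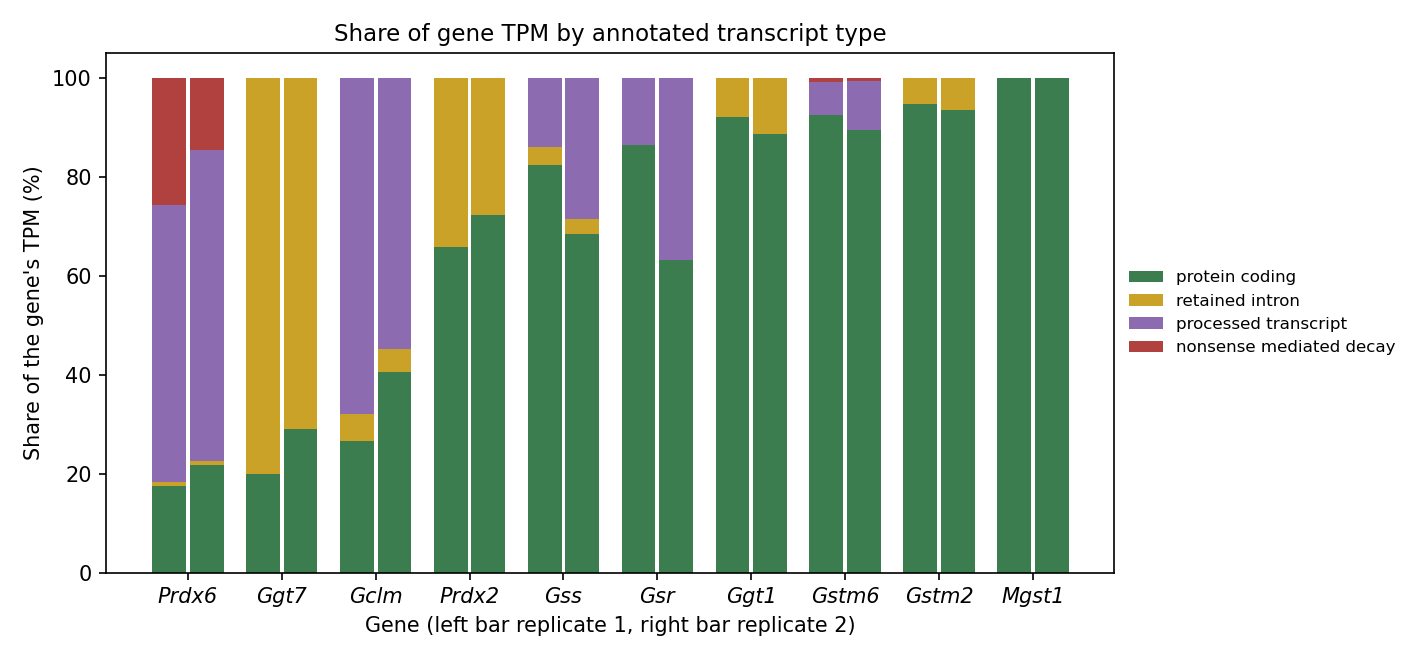
Share of each gene's TPM (percent) by annotated transcript type for 10 members, with replicate 1 on the left and replicate 2 on the right of each pair. Protein-coding forms carry 17.4% and 21.7% of Prdx6, 19.96% and 29.1% of Ggt7 and 26.5% and 40.5% of Gclm, and nearly all of Mgst1.

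Differences between the libraries were small for many of these genes, as they were for many of all expressed genes. Each difference is the log2 of TPM + 1 in replicate 2 over that in replicate 1, a scale that shrinks differences of low genes. No member of the 37 with a mean count of 20 or more was over 2-fold apart, beside 2.70% of 16920 such genes, 1.15% higher in replicate 2 and 1.54% higher in replicate 1. The median ratio of the 34 expressed members was -0.03, against -0.12 for all expressed genes, and 17 of the 34 lay within 0.2 of 0, beside 44.6% of all expressed genes. On the FPKM scale both medians moved up, to 0.09 and -0.01, and on counts scaled by TMM to 0.10 and 0.01, so the sign of the members' median is not fixed. Under TMM scaling 8 expressed members changed sign. Among them Gstp1, Gstm7 and Gstm2 were near 0 on both scales, at 0.004, 0.11 and 0.10 under TMM. Prdx1 moved further, from -0.17 to 0.36, and so did Mgst2, from 0.10 to -0.51.

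Among the larger differences, Gstm6, Gclm and Ggt1 led. There were 5 expressed members at least 1.5-fold higher in replicate 1 on the scale of TPM + 1, beside 9.91% of all expressed genes, and 0 as far in the other direction, beside 3.42%. All expressed genes leaned the same way, and the count depended on the scaling. By FPKM it was 3 against 1, beside 5.70% and 4.82% of all expressed genes, and by counts scaled with TMM it was 4 against 2, beside 7.41% and 6.26%. Gstm6, Gclm and Ggt1 were past 1.5-fold under both, and Mgst3 was the gene higher in replicate 2, joined by Gstz1 under TMM. Gstm6 differed most, with a log2 ratio of -0.94. Gclm followed at -0.76, Ggt1 at -0.73, Gstt3 at -0.66 and Prdx6 at -0.61. Over coding transcripts the ratio of Gclm was -0.15 and that of Prdx6 -0.29, while Gstm6, Ggt1 and Gstt3 were at -0.99, -0.78 and -0.66. The value of Gclm joins opposite moves. Its coding form Gclm-206 was higher in replicate 2, at 27.6 against 23.9 TPM, while the coding sum was lower, at 33.9 against 37.7 TPM. The other coding forms of Gclm together were thus lower in replicate 2. Gsr was at -0.24 over all transcripts and at -0.66 over coding transcripts. Ggt7 was at -0.48 over all transcripts, at 0.05 over coding transcripts and at -0.09 under TMM scaling. For Ggt5 these values were -0.35, -0.37 and -0.04. Of the members higher in replicate 2, Mgst3 at 0.50 and Gstz1 at 0.45 led among those over 10 TPM. The epididymal markers were also lower in replicate 2, with a median log2 ratio of -0.63 over all 10 and 8 of 10 lower. The adipocyte markers had a median of 0.22, with 4 of 10 lower in replicate 2. Other lists were lower in replicate 2 as well: sperm and germ cell markers in 5 of 5 (median over expressed markers -0.84), stromal markers in 3 of 4 (-0.38), and liver markers in 3 of 3, with sums of 40.9 and 4.55 TPM. The part of such shifts in the differences of Gstm6, Ggt1, Gstt3, Mgst3 and Gstz1 was not tested.

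**Figure D4:**
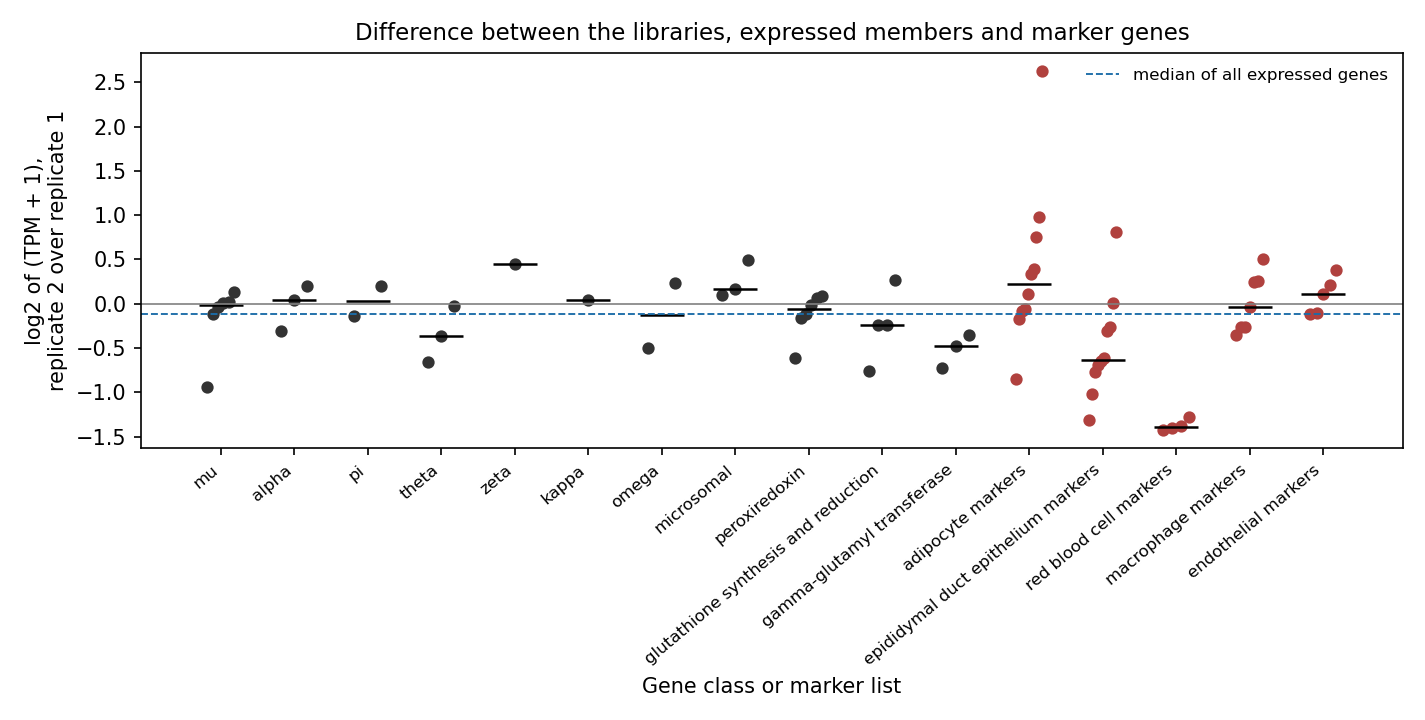
Difference between the libraries as the log2 ratio of TPM + 1, replicate 2 over replicate 1, for each expressed member by class (black points) and for expressed markers of adipocytes, epididymal duct, red blood cells, macrophages and endothelium (red points); bars are medians and the dashed line is the median of all expressed genes, -0.12. On this scale the gamma-glutamyl transferase and theta genes lie below 0, though Gstt1, at -0.025, lies close to 0 and above the dashed line. Gstz1 lies at 0.45, and of the 5 marker lists drawn the red cell list has the lowest median, -1.39.

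The partner systems of these enzymes were expressed nearly throughout. From lists of thioredoxin, glutaredoxin, glutathione, NRF2, superoxide and sestrin genes, 52 of 54 genes that are not members were expressed. The share was 61.6% for all protein-coding genes. Of the 54, 0 were over 2-fold apart, beside 2.70% of the 16920 genes averaging at least 20 counts. The lists were picked with earlier results of these data known, so they are not a random set. All 8 thioredoxin genes were expressed, with Txnip, a thioredoxin inhibitor, at 532 and 724 TPM, Txn2 at 151 and 160 TPM, Txn1 at 143 and 130 TPM and Srxn1, which repairs overoxidised peroxiredoxins, at 88.8 and 95.1 TPM. The cytosolic reductase gene Txnrd1 was at 30.6 and 24.8 TPM. The 4 glutaredoxins were led by Glrx5 at 67.7 and 80.6 TPM. The 3 superoxide dismutase genes Sod1, Sod3 and Sod2 were at 604 and 518, 83.7 and 83.5, and 53.2 and 60.1 TPM, and the catalase gene Cat at 162 and 156 TPM. The glutathione peroxidases led the list of other glutathione genes. Gpx5, which is also an epididymal marker, was at 9518 and 6082 TPM, Gpx3, the secreted plasma form, at 979 and 1497 TPM, Gpx1 at 676 and 697 TPM and Gpx4, which acts on lipid peroxides in membranes, at 624 and 1002 TPM. The 2 genes that were not expressed were Hpgds, a prostaglandin synthase of the sigma transferase class, at 0.90 and 1.36 TPM, and the exporter gene Abcc2 at 0.23 and 0.10 TPM.

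NRF2, encoded by Nfe2l2, is the factor that raises many of these genes under oxidative stress, and it binds the antioxidant response element. Nfe2l2 was at 41.0 and 44.1 TPM and Keap1, its inhibitor, at 55.6 and 52.6 TPM. All 16 genes of the NRF2 list, which holds Gclc and Gclm, were expressed. Enzymes of the pentose phosphate pathway led it, with Tkt at 346 and 497 TPM, Taldo1 at 258 and 336 TPM and the NADPH-forming Pgd and G6pdx at 189 and 233 and at 156 and 174 TPM, whereas Nqo1 was at 21.8 and 21.2 TPM and Hmox1 at 16.6 and 17.8 TPM. The element's core was searched as TGACNNNGC on both strands in RefSeq promoters of 300 bases, 250 before to 50 after each start, on GRCm38.p6. Of the 39 genes, 33 had a promoter in the table, with 45 windows in all. The core was found in 9 of the 45 windows (20%), from the 7 genes Gsta3, Gstm5, Gstm7, Gclm, Prdx1, Mgst1 and Ggt1, and in 12.4% of all 32851 windows. The fuller form TGACTCAGC was in 1 member window, that of Prdx1, and in 0.454% of all windows. Of the 7 genes with a match, Prdx1 and Gclm are shown because they are well-known NRF2 targets and differed in level by transcript form. Gclc, also on the NRF2 list, was not among the 7. The stretches shown are the bases before the first annotated start on the plus strand. The core match, which is on the opposite strand, is in capitals. These stretches are chr4:116685349-116685543 and chr3:122245307-122245556.
Prdx1: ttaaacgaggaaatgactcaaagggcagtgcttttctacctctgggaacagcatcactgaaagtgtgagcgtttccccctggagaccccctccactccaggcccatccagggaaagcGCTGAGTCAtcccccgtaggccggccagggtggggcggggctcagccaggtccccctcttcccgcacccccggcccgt
Gclm: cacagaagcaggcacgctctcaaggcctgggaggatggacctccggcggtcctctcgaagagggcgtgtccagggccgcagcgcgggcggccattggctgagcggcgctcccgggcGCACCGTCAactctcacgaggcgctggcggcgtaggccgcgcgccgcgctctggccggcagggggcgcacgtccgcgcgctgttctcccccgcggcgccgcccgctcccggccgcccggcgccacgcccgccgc
The match starts 133 bases before the RefSeq start in Prdx1 and 134 bases before it in Gclm. Guanine and cytosine made up 63.1% of the Prdx1 stretch and 78.4% of the Gclm stretch. A match of letters is a description of these windows and says nothing on binding.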

How the data were processed

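Polyadenylated RNA longer than 200 nt was sequenced as strand-specific 76 nt pairs, per the labels. The authors' deposited gene and transcript tables gave expected counts, TPM, FPKM, their posterior means and, per the file headers, the percent of a gene's TPM on each transcript. They were made on mm10 with annotation M4, per the submitters' notes beside the files. Not given in the sources used here are the aligner and quantifier, and the level of the deposited TPM intervals is not stated. The deposited posterior standard deviation of the count and effective length (other values) were used as given. Deposited tables of junctions and contigs on mm9 were not used.

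Symbols came from Ensembl identifiers. Positions, transcript types and transcript sequences came from GENCODE M21 on the same build, which held all 161 member transcripts by identifier. Some sequences differed in length from those quantified. Gstp1-201 and Gstp2-201 were 757 and 770 nt as deposited, and 821 and 797 nt in M21. The shares of 76-nt stretches are those of the M21 sequences. The libraries differed beyond counting noise (chi-square per degree of freedom 136). The floor of 3 counts is 0.0402 and 0.0323 TPM at 2 kb, for counting error only. With 1 group, no test was run. Alternatives used edgeR 4.0.16 (TMM) and the size factors of DESeq2 1.42.0, both from expected counts after rounding. Coding sequences were aligned with Biopython 1.88. The code of the 2-fold rule was tested on simulated data. By the rule for named genes every member was accounted for, isoforms were considered for members with at least 2 transcripts at 10 percent of gene TPM, and up to 4 related genes with the highest level were named per list. Txnrd1, Hpgds, Abcc2, Nfe2l2, Keap1, Nqo1 and Hmox1 were named outside that rule after their values were seen. The value of 1 marker gene is not reported here. The members and lists were chosen with earlier results of these data known.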

Additional observations from a re-analysis of the deposited data

How the results depend on the processing

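The count of expressed members ran from 31 to 37 over the alternatives to 34: 37 at 0.5 TPM, 31 at 2 and at 10 TPM, 33 by FPKM, and 35 to 36 with a single replicate. Members over 2-fold apart were 0 as reported and 2, Gstp3 and Gstt4 with 14 to 59 counts, under each of TMM scaling, DESeq2 size factors and a pseudocount of 0.1. The mu share of 39.3% became 41.1% by expected counts and 41.5% over protein-coding transcripts, and was 39.0% to 39.5% with a single replicate. Of the 10 highest members, 9 remained by counts, where Ggt1 replaced Prdx5, and 9 over coding transcripts, where Prdx3 replaced Prdx6. Counts past 1.5-fold by setting were added after seeing the data: 3 to 6 members were higher in replicate 1 (5 as reported) and 0 to 2 in replicate 2 (0 as reported). The cause of these moves was not tested. No paired analysis was possible because there is 1 group. Depth limits Gsta1, Gstm3, Gstp3 and Mgst2, with under 50 counts in each library (the log2 ratio of Mgst2 was 0.10 as reported and -0.51 under TMM scaling), and 2 libraries give no measure of spread beyond their difference.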

Other observations

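Prdx6b, outside the naming rule, was at 0.87 and 0.47 TPM from 87 and 58 counts. The rows Prdx6-ps2 and Prdx2-rs3 held 0 counts in both libraries.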
